A study of Mus musculus with 18 samples.

Results

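The genes described here are 38 type I interferon response genes, a list set by gene symbol and matched to the Ensembl identifiers of the count table through GENCODE M21. All 38 were found among its 55487 genes. They were followed in bulk RNA-seq of splenic and lymph node CD8+ T cells of wild-type C57BL/6J mice, sorted on CD137 (41BB, the product of Tnfrsf9) into a 41BB+ population, which the submitters call Tpam, and a 41BB- population, which they call conventional. The 6 groups, of 3 libraries each, were 41BB+ and 41BB- cells taken straight after sorting (0 h, no activation) and the same sorted populations after 24 h or 72 h of culture with anti-CD3/CD28 beads, which stand in for antigen and costimulation. All 6 groups share the wild-type genotype and strain, and the activated groups share medium, serum and beads. The sources used here give neither age nor sex of the mice. The 18 libraries held 3085241 to 4239795 counts each, with a median of 3524157.5. The libraries are numbered by experiment (1 to 3), and whether an experiment was 1 mouse or a pool is not given, so p-values measure the spread between these libraries.

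Type I interferons, the interferon alphas and interferon beta, bind a receptor made of the IFNAR1 and IFNAR2 chains, and the kinases JAK1 and TYK2 then phosphorylate STAT2. With IRF9 it takes part in a complex that binds the interferon-stimulated response element (ISRE) in the promoters of antiviral genes, while the gamma-activated site (GAS) is the element known from interferon gamma signaling. In CD8 T cells interferon given with the antigen signal is a costimulus for expansion and effector function, and low tonic interferon signaling keeps many of these genes on in resting cells.

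The promoter sequence of some members is shown first, because matches to the 2 elements are more common in the list than in all promoters, though many members hold neither. Of the 38 members, 29 had a promoter in the RefSeq table for assembly GRCm38.p6, read as 250 bases before to 50 bases after each transcription start. The ISRE was searched as GAAA, then 2 bases of any kind, then GAAA, and the GAS as TTC, then 3 bases of any kind, then GAA, on both strands. An ISRE match lay in 14 of the 29 members (48.3%) and in 3.99% of the 27025 genes with a promoter. A GAS match lay in 9 members (31%) and in 9.55% of all genes with a promoter, 19 members held a match to either motif, and 4 held both. Where matches touch or overlap they form one capital run, and a run that reads TTTC is the ISRE on the opposite strand. Matches are descriptions of these windows and not measured binding sites. The sequences below, 5′ to 3′ on the gene's strand and with the matches in capitals, end before the transcription start.
Ifit1 (ISRE, chr19:34640765-34640833, + strand): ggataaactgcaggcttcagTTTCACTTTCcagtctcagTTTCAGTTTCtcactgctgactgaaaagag
Ifit3 (ISRE, chr19:34583353-34583436, + strand): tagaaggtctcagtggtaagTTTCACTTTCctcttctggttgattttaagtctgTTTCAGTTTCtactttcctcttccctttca
Isg15 (ISRE, chr4:156200855-156200916, - strand): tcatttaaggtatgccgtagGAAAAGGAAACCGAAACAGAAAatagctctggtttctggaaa
Oas1a (ISRE, chr5:120907526-120907565, - strand): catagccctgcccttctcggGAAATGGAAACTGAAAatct
Stat2 (ISRE, chr10:128270256-128270305, + strand): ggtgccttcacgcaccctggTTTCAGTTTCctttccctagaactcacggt
Irf1 (GAS, chr11:53769904-53769952, + strand): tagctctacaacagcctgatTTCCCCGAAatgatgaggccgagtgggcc
Samhd1 (GAS, chr2:157135303-157135346, - strand): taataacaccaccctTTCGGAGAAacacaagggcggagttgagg
Ifit1, Ifit3, Isg15 and Oas1a are shown because they fell by 24 h in 41BB- cells and were low at 72 h, Stat2 because it rose again by 72 h, and Irf1 and Samhd1 because they rose by 24 h in 41BB+ cells. Irf1 and Samhd1 hold a GAS match and no ISRE match in these windows. The same holds for Ifit2, Isg20 and Ifi35, whose 72 h level in 41BB- cells lay below every 0 h library. Oas1a also holds a GAS match, upstream of the stretch shown. Among the 10 members whose 72 h level in 41BB+ cells lay above every 0 h library, 8 had a promoter in the table, 3 with an ISRE match and 3 with a GAS match. Among the 12 members whose 72 h level lay below every 0 h library, 8 had a promoter, 4 with an ISRE match and 3 with a GAS match.

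Some members lie together on the chromosomes (GENCODE M21 coordinates, GRCm38), while many others lie singly. Ifit1, Ifit2, Ifit3 and Ifit1bl1 sit on chromosome 19 between positions 34550694 and 34650009. Oas1a, Oas2 and Oas3 sit on chromosome 5 between 120730333 and 120907521, with Oasl1 and Oasl2 on the same chromosome between 114896936 and 114937915. Parp14 and Parp9 are neighbours on chromosome 16 (35832874 to 35972605), and Rsad2 and Cmpk2 on chromosome 12 (26442746 to 26479837). Neighbours did not always move together, as the values for Ifit1 and Ifit2 and for Oas1a and Oas3 show below.

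The summed level of the members was lower in freshly sorted 41BB+ than in 41BB- cells and higher after 72 h with beads, where 8 of 34 tested genes passed the test singly. The summed level of the 38 members, as CPM (a count divided by its library total and multiplied by 1e6), was 756 ± 5.70 (SD, n = 3) in 41BB+ cells and 1858 ± 108 (n = 3) in 41BB- cells at 0 h. At 24 h the sums were 612 ± 93.2 in 41BB+ and 826 ± 42.4 in 41BB- cells, and at 72 h they were 1501 ± 278 and 1045 ± 9.55. At 0 h and 72 h no library of one population overlapped the other in this sum, and at 24 h the highest 41BB+ library (680 CPM) also lay below the lowest 41BB- library (785 CPM). Samhd1 and Irf1 took a large share of the sum. Without them the means were 607 and 1314 CPM at 0 h, 368 and 452 CPM at 24 h, and 757 and 578 CPM at 72 h, 41BB+ first in each pair. In bulk RNA a lower level from fewer expressing cells and one from less RNA per cell cannot be told apart.

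**Figure D1:**
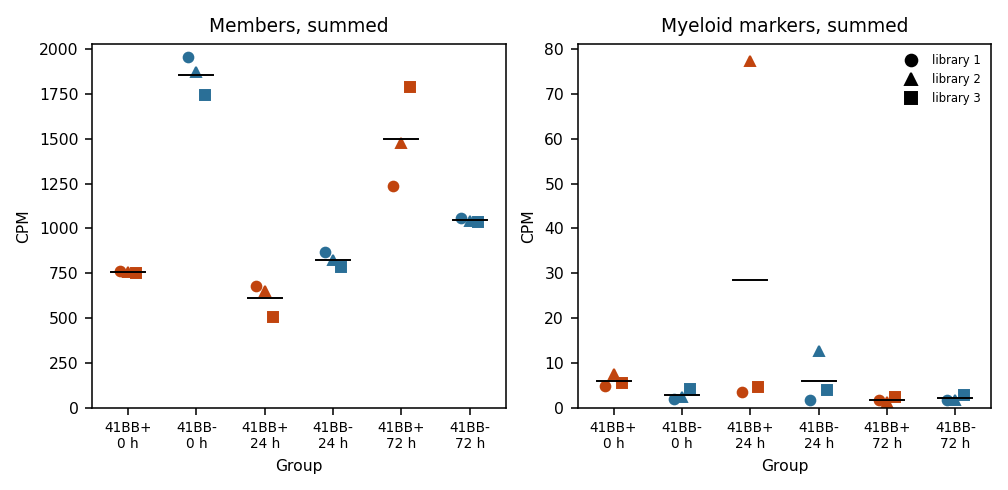
Summed level of the 38 members (left) and of 9 macrophage, monocyte and neutrophil markers (right) in CPM for each library, by group, with the horizontal line at the group mean and the symbol giving the library number. 41BB+ libraries lie below 41BB- libraries at 0 h and above them at 72 h, and library 2 of the 41BB+ 24 h group stands apart in the marker sum at 77.4 CPM.

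Of the 38 members, 34 passed the filter on low counts and were tested among 13150 genes with edgeR's quasi-likelihood test, with p-values adjusted over all 13150 (Benjamini-Hochberg). A gene counts as changed at an adjusted p under 0.05. The other 4 were Ifitm2, with 0 counts in every library, and Rsad2, Ifitm3 and Ifi44, each with few counts in any group. At 0 h 22 members were lower in 41BB+ than in 41BB- cells and 0 were higher by edgeR (0 at an unadjusted p under 0.05, 0 by DESeq2), where 17.3% of all tested genes were lower and 22.2% higher. At 24 h 6 were lower against 1.07% of all genes, and 0 were higher by edgeR (1 at an unadjusted p under 0.05, 0 by DESeq2) against 1.67%. At 72 h 8 were higher against 6.71%, and 0 were lower by edgeR (1 at an unadjusted p under 0.05, 0 by DESeq2) against 12.2%. The median log2 fold change of 41BB+ over 41BB- cells across the tested members was -1.25, -0.54 and 0.67 at the 3 times, beside 0.01, 0.02 and -0.04 over all genes tested. With members that had 0 counts in 1 group set to their bound, and those under the floor in both groups left out, these medians were -1.25, -0.54 and 0.76.

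**Figure D2:**
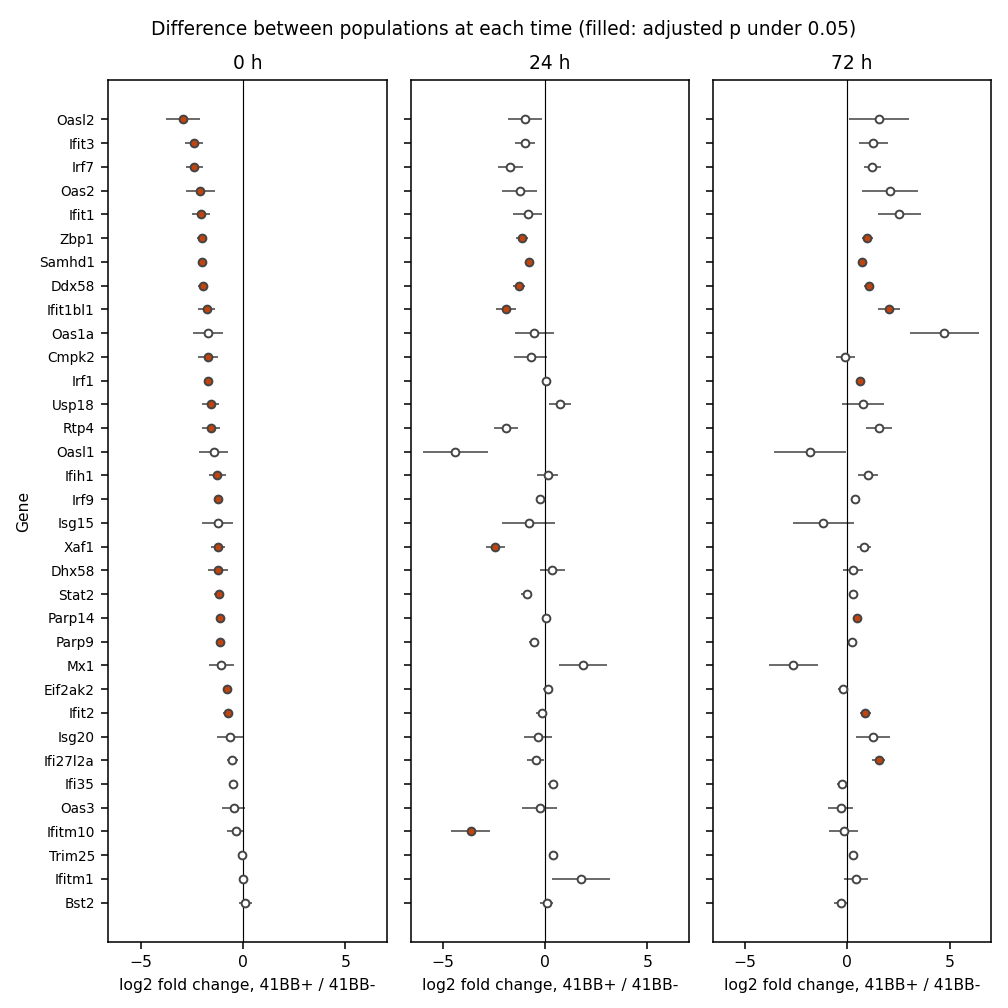
log2 fold change of 41BB+ over 41BB- cells for the 34 tested members at 0 h, 24 h and 72 h, ordered by the 0 h value. Each point is the edgeR estimate with a standard error derived from its F value, and is filled where the adjusted p is under 0.05. Ifitm1 had 0 counts at 0 h, so its point and bar of 0 there carry no information. The filled points lie left of 0 at 0 h (22 genes) and 24 h (6 genes) and right of 0 at 72 h (8 genes).

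The 22 members lower at 0 h and the 8 higher at 72 h shared 7 genes, Samhd1, Zbp1, Ddx58, Irf1, Parp14, Ifit2 and Ifit1bl1. That is 31.8% of the first list and 87.5% of the second. Over all tested genes the same overlap held 27.0% of the genes lower at 0 h and 69.5% of those higher at 72 h. Both lists held a greater part of the tested members than of all genes, so these shares are not directly comparable. Among these 7, the 72 h calls of Zbp1, Parp14, Ifit2 and Ifit1bl1 were each lost in at least 1 edgeR fit that left out 1 library. The 0 h call of Ifit2 was lost in 4 of the 6 such fits (largest adjusted p = 0.0864, edgeR). Samhd1, Ddx58 and Irf1 kept both calls in every such fit. The 0 h and 72 h comparisons used different libraries. Ifi27l2a was the 1 member higher at 72 h that did not differ by the test at 0 h.

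Most tested members were lower after the first day of culture with beads, and culture and beads cannot be told apart since all cultured groups had both. From 0 h to 24 h 30 members fell in 41BB- cells, against 27.6% of all genes, and 0 rose by edgeR (0 at an unadjusted p under 0.05, 0 by DESeq2), against 29.0%. Over the same interval 19 fell and 2 rose in 41BB+ cells, against 16.5% and 18.1% of all genes. All 19 were among the 30, and over all genes 76.5% of those that fell in 41BB+ cells also fell in 41BB- cells. Between 24 h and 72 h 20 members rose and 2 fell in 41BB+ cells, against 26.2% and 26.3% of all genes, while 12 rose and 9 fell in 41BB- cells, against 22.6% and 18.2%. All 12 that rose in 41BB- cells were among the 20 in 41BB+ cells, and over all genes this share was 71.9%. In both overlaps the larger list held a greater part of the 34 tested members than of all genes. The shares of members and of all genes are thus not directly comparable. The median log2 fold change of the tested members from 0 h to 24 h was -1.29 in 41BB+ and -2.30 in 41BB- cells, and from 24 h to 72 h it was 0.96 and 0.13. With bounds in place of fitted values the 41BB- median to 24 h was -2.32 and the 41BB+ median to 72 h was 1.11.

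The difference between these responses was tested as an interaction (the 41BB+ change minus the 41BB- change). From 0 h to 24 h the interaction was positive for 6 members, against 9.03% of all genes, and negative for 1 (Ifitm10), against 14.0%. In the interval to 72 h it was positive for 10 members, against 6.10% of all genes, and negative for 0 by edgeR (1 at an unadjusted p under 0.05, 1 by DESeq2), against 11.4%. Both interactions and the population differences at 24 h use the same 24 h libraries.

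**Figure D3:**
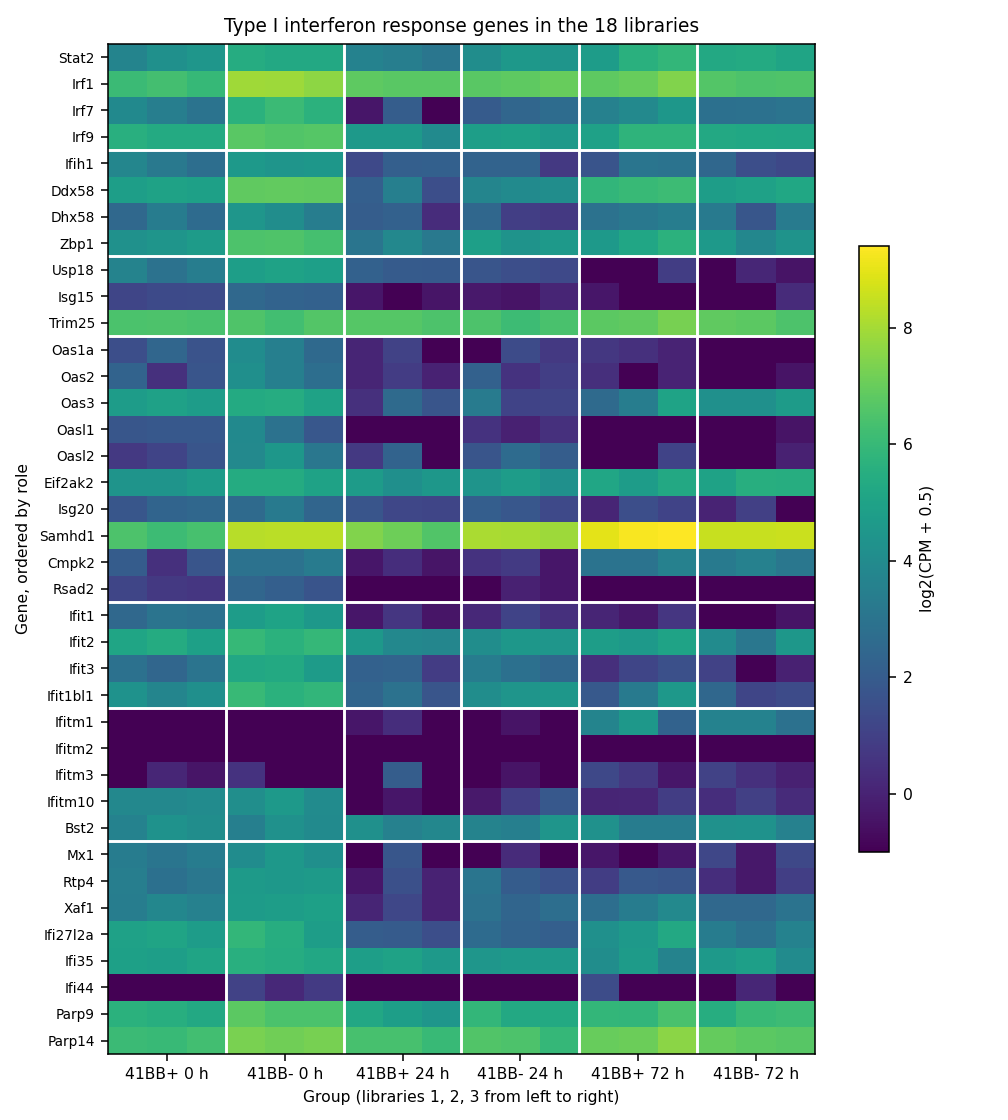
Level of all 38 members as log2(CPM + 0.5) in the 18 libraries, genes in rows ordered by role with white lines between roles, and libraries in columns by group. The 41BB- 0 h columns are the brightest for most rows, and most rows are darker at 24 h than at 0 h in both populations. Ddx58 brightens again at 72 h, most in 41BB+ cells. Samhd1 brightens in 41BB+ cells at 24 h and further at 72 h.

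Some libraries stood apart within their group. Library 2 of the 41BB+ 24 h group held 77.4 CPM of 9 macrophage, monocyte and neutrophil markers, with Lyz2 at 45.9, Csf1r at 10.9 and S100a9 at 10.3 CPM and Itgam, Cd14 and Ly6g at 0. The lowest library of that group held 3.40 CPM, all other groups held 1.16 to 12.5 CPM, and this library was the highest of its group for 20 of the 34 tested members. In the 41BB+ 72 h group library 3 was the highest for 22 of 34 and library 1 the lowest for 19. The sum of 8 conventional dendritic cell markers was 50.4, 43.5 and 118 CPM in 41BB+ libraries 1 to 3 at 0 h. In 41BB- libraries it was 25.9 to 43.4 CPM at that time. At 24 h it was 21.3, 57.0 and 15.3 CPM in 41BB+ libraries 1 to 3, and 17.2 to 26.2 CPM in 41BB- libraries. B cell markers summed to 100.5 to 106 CPM in 41BB+ and 233 to 262 CPM in 41BB- libraries at 0 h, and to 535 to 601 and 425 to 508 CPM at 72 h. At 0 h nearly all of it was Ighm, with Ms4a1 and Cd79a each under 1 CPM there. Of 8 markers of plasmacytoid dendritic cells, a major source of interferon, Irf8 and Klk1 were at 0 in every library, and the summed level of that list at 0 h (88.4 to 98.1 CPM in 41BB+ and 113 to 130 CPM in 41BB- libraries) was mostly Ccr9. Of 5 stromal and endothelial markers, which summed to 103 to 137 and 208 to 262 CPM at 0 h, nearly all was Pecam1, which T cells also express. This sum had the same order of populations as the summed members at each time, at 15.1 to 36.3 against 36.4 to 44.4 CPM at 24 h and 208 to 282 against 106 to 122 CPM at 72 h. The part of these RNAs in the member differences was not tested. Tnfrsf9, the gene of the sort marker, lay at 373, 421 and 374 CPM in 41BB+ and 4.96, 6.81 and 8.45 CPM in 41BB- libraries at 0 h. At 24 h it no longer separated the populations by the test, at 137, 129 and 149 against 172, 184 and 194 CPM (adjusted p = 0.621, edgeR), and at 72 h it was lower in 41BB+ libraries (18.4, 33.8 and 11.6 against 44.0, 51.7 and 61.3 CPM). Cd8a and Cd8b1 were present in all 18 libraries, at no less than 323 and 221 CPM. The sum of 8 CD8 T cell markers also moved with the members, at 2443 to 2633 CPM in 41BB+ and 3807 to 4102 CPM in 41BB- libraries at 0 h, 1372 to 1479 and 1765 to 1803 CPM at 24 h, and 2804 to 3085 and 2274 to 2674 CPM at 72 h. Of these 8 markers 7 were lower in 41BB+ cells at 0 h, against 17.3% of all genes, and 3 higher at 72 h, against 6.71%. Their part in the member differences was not tested.

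Among the transcription factors, Irf1 (ENSMUSG00000018899, chr11:53770014-53778374), a factor induced by interferons and by antigen receptor signaling, changed in opposite directions in the 2 populations. At 0 h it was at 67.2, 79.0 and 62.1 CPM in 41BB+ libraries 1 to 3 and at 246, 232 and 199.7 CPM in 41BB- libraries. At 24 h the values were 112, 108 and 106 against 107, 114 and 127 CPM, and at 72 h they were 112, 127 and 175 against 98.0, 90.7 and 91.5 CPM. The populations were thus separate at 0 h, overlapped at 24 h and were separate again at 72 h with 41BB+ cells on top. The log2 fold change of 41BB+ over 41BB- was -1.71 ± 0.14 (SE) at 0 h (adjusted p = 1.27e-10) and 0.60 ± 0.14 at 72 h (adjusted p = 0.00271). From 0 h to 24 h Irf1 rose in 41BB+ cells (0.70 ± 0.14, adjusted p = 0.000348) and fell in 41BB- cells (-1.04 ± 0.14, adjusted p = 2.83e-07), an interaction of 1.73 ± 0.20. From 24 h to 72 h it rose further in 41BB+ cells (0.42 ± 0.14, adjusted p = 0.0129), a call lost without 41BB+ 72 h library 3 (adjusted p = 0.198). Its interaction from 24 h to 72 h (0.58 ± 0.20, adjusted p = 0.0403) had an adjusted p of 0.0518 with the experiment number as a replicate block, and was lost without 41BB+ 24 h, 41BB- 24 h or 41BB+ 72 h library 3 (largest adjusted p = 0.11).

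Stat2 (ENSMUSG00000040033, chr10:128270559-128292849), a subunit of the complex that binds the ISRE, was lower at 24 h than at 0 h in both populations. The 41BB+ change (-0.75 ± 0.27, adjusted p = 0.0339) was lost in 4 of the 6 fits without 1 library (largest adjusted p = 0.239). It was at 12.4, 18.0 and 21.8 CPM in 41BB+ and 42.8, 37.9 and 38.3 CPM in 41BB- libraries at 0 h. At 24 h it was at 11.9, 10.3 and 7.92 against 16.9, 22.7 and 21.02 CPM, and at 72 h at 26.6, 48.3 and 58.4 against 38.7, 40.1 and 33.0 CPM. Every 41BB+ library lay below every 41BB- library at 0 h and 24 h, and at 72 h the 41BB- libraries lay inside the range of the 41BB+ libraries. The 24 h to 72 h rise was 2.21 ± 0.26 on the log2 scale in 41BB+ (adjusted p = 3.84e-08) and 1.02 ± 0.25 in 41BB- cells (adjusted p = 0.00127), with an interaction of 1.19 ± 0.36 (adjusted p = 0.0197) that was lost without 41BB+ 24 h library 3 or 41BB+ 72 h library 3 (largest adjusted p = 0.0587).

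Irf9, the DNA-binding partner of STAT2, fell most in 41BB- cells, from 105, 94.97 and 100.44 CPM at 0 h to 28.4, 29.6 and 23.6 CPM at 24 h (log2 fold change -1.96 ± 0.20, adjusted p = 1.48e-09). In 41BB+ cells it went from 46.2, 40.6 and 40.8 to 24.4, 24.4 and 15.3 CPM (-0.94 ± 0.20, adjusted p = 0.000576). The interaction was 1.01 ± 0.28 (adjusted p = 0.00849). At 72 h Irf9 was at 30.5, 54.4 and 53.6 CPM in 41BB+ and 38.5, 36.0 and 35.4 CPM in 41BB- libraries, and the populations overlapped. Irf7, which drives the interferon genes themselves, was at 14.7, 10.3 and 7.36 CPM in 41BB+ and 49.0, 68.4 and 51.3 CPM in 41BB- libraries at 0 h (-2.40 ± 0.41, adjusted p = 5.51e-05). After 24 h it was at 0.283, 3.71 and 0 CPM in 41BB+ cells, the 3.71 coming from library 2 with the myeloid RNA, and it rose to 11.5, 14.3 and 22.4 CPM at 72 h (3.62 ± 0.55, adjusted p = 7.34e-06). In 41BB- cells Irf7 stayed at 6.59 to 7.55 CPM at 72 h.

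The sensors of viral RNA and of unusual nucleic acid structures gave some of the clearest differences. Ddx58 (ENSMUSG00000040296, chr4:40203773-40239828) encodes RIG-I, which detects viral RNA ends. It was at 27.7, 31.8 and 29.7 CPM in 41BB+ and 116, 119 and 116 CPM in 41BB- libraries at 0 h. At 24 h it was at 3.97, 10.6 and 2.30 against 12.8, 15.1 and 16.8 CPM, and at 72 h at 57.1, 64.3 and 70.6 against 27.1, 30.5 and 36.3 CPM. No library of one population overlapped the other at any time, and the order turned between 24 h and 72 h. The log2 fold change of 41BB+ over 41BB- was -1.98 ± 0.23 (adjusted p = 6.96e-08), -1.29 ± 0.30 (adjusted p = 0.0169) and 1.06 ± 0.23 (adjusted p = 0.00135). The 24 h call was lost without any of 4 of the 6 libraries compared (largest adjusted p = 0.135) and was -2.15 without 41BB+ library 2. Between 24 h and 72 h Ddx58 rose by 3.57 ± 0.28 in 41BB+ (adjusted p = 2.17e-11) and 1.22 ± 0.25 in 41BB- cells (adjusted p = 0.000282), and the interaction was 2.35 ± 0.38 (adjusted p = 7.02e-05).

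Zbp1 (ENSMUSG00000027514, chr2:173206612-173218923), a sensor of Z-form nucleic acid that can trigger cell death, rose from 24 h to 72 h in 41BB+ cells (1.92 ± 0.27, adjusted p = 9.94e-07) and not by the test in 41BB- cells (-0.20, adjusted p = 0.573). It was at 18.6, 21.2 and 25.8 CPM in 41BB+ and 88.9, 91.7 and 80.5 CPM in 41BB- libraries at 0 h. At 24 h the values were 7.65, 14.0 and 8.69 against 29.0, 20.1 and 24.4 CPM, and at 72 h 23.9, 34.9 and 51.4 against 23.4, 13.7 and 20.0 CPM. The populations did not overlap at any of the times, though by little at 72 h. It was lower in 41BB+ cells at 0 h (log2 fold change -2.00 ± 0.25, adjusted p = 2.23e-07) and higher at 72 h (0.98 ± 0.25, adjusted p = 0.00685), the second call lost without 41BB+ library 3 (adjusted p = 0.0632). The 24 h to 72 h interaction was 2.13 ± 0.38 (adjusted p = 0.000201).

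Ifih1 (the sensor MDA5) and Dhx58 (LGP2, which tunes both RNA sensors) were lower in 41BB+ cells at 0 h, by -1.26 ± 0.42 (adjusted p = 0.0182) and -1.23 ± 0.49 (adjusted p = 0.0489) on the log2 scale. The call of Ifih1 was lost without 41BB+ library 2, 41BB+ library 3 or 41BB- library 1 (largest adjusted p = 0.0891). That of Dhx58 was lost without 41BB+ library 1 or 3 or 41BB- library 1 or 2 (largest adjusted p = 0.188) and had adjusted p = 0.0637 with the replicate block. Neither differed by the test between populations at 24 h or 72 h.

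The feedback genes split. Usp18 (ENSMUSG00000030107), which removes ISG15 from proteins and blocks signaling at the receptor, fell and did not come back. It was at 12.1, 7.15 and 10.3 CPM in 41BB+ and 28.2, 31.1 and 28.7 CPM in 41BB- libraries at 0 h. After 24 h it was at 4.25, 3.45 and 3.32 against 2.87, 2.36 and 1.99 CPM, and at 72 h 5 counts remained over the 3 41BB+ libraries and 3 over the 3 41BB- libraries. The 0 h difference was -1.59 ± 0.41 (adjusted p = 0.00278), and the larger fall in 41BB- cells gave an interaction of 2.31 ± 0.66 from 0 h to 24 h (adjusted p = 0.0111). Later, to 72 h, Usp18 fell in 41BB+ (-2.83 ± 0.68, adjusted p = 0.000828) and in 41BB- cells, where 26 counts became 3, a ratio of 9.14 with a 95% counting interval of 2.80 to 47.2. Isg15, the ubiquitin-like modifier itself, was at 4.22 to 5.27 CPM in 41BB- and 1.77 to 2.10 CPM in 41BB+ libraries at 0 h, and had 1 to 4 counts in each group of 3 libraries later. Trim25, a ubiquitin ligase that acts on RIG-I, kept between 70.2 and 154 CPM in all 18 libraries. It did not differ by the test between populations (log2 fold changes -0.03 ± 0.15, 0.36 ± 0.15 and 0.29 ± 0.14) and rose from 24 h to 72 h in both (0.46 ± 0.14, adjusted p = 0.00882, and 0.52 ± 0.15, adjusted p = 0.00496). The first of these was lost without 41BB+ 72 h library 3 (0.29, adjusted p = 0.106) and the second without 41BB- 24 h library 2 or 72 h library 1 (largest adjusted p = 0.0862).

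Among the enzymes that act on nucleotides and RNA, Samhd1 (ENSMUSG00000027639, chr2:157097533-157135265), which breaks down the deoxynucleotides used for DNA synthesis, held the most counts of any member in every group but 41BB+ cells at 0 h, where Trim25 led. At 0 h it was at 89.5, 68.9 and 82.3 CPM in 41BB+ and 314, 321 and 320.01 CPM in 41BB- libraries. At 24 h it was at 173, 136 and 95.9 against 273, 267 and 234 CPM, and at 72 h at 511, 628 and 679 against 369.57, 372 and 377 CPM. The 41BB+ libraries lay below the 41BB- libraries at 0 h and 24 h and above them at 72 h, without overlap. The log2 fold change of 41BB+ over 41BB- was -2.00 ± 0.15 (adjusted p = 5.20e-11), -0.82 ± 0.15 (adjusted p = 0.00145) and 0.74 ± 0.14 (adjusted p = 0.000497). Samhd1 rose in 41BB+ cells in both intervals, by 0.80 ± 0.15 (adjusted p = 0.000148) and 2.23 ± 0.15 (adjusted p = 1.43e-12). In 41BB- cells the 0 h to 24 h change was -0.38 ± 0.14 (adjusted p = 0.0269), a call lost without any of the 6 libraries in turn (largest adjusted p = 0.199), and the later rise was 0.68 ± 0.14 (adjusted p = 0.000381). The interactions were 1.18 ± 0.21 (adjusted p = 0.000111) and 1.56 ± 0.20 (adjusted p = 6.27e-06).

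The oligoadenylate synthases, which make the messenger that activates RNase L, were mostly at few counts by 72 h. Over the 41BB- libraries 46 counts of Oasl2, 22 of Oas2 and 13 of Oas1a were left at 24 h, and over the 41BB+ libraries Oasl2 had 21 counts at both 0 h and 24 h. Oas1a went from 35 counts over the 41BB+ and 104 over the 41BB- libraries at 0 h to 9 and 0 counts at 72 h, Oas2 from 29 and 111 to 5 and 1, Oasl1 from 33 and 80 to 0 and 1, and Oasl2 from 21 and 143 to 6 and 2. Oas2 and Oasl2 were lower in 41BB+ cells at 0 h (log2 fold changes -2.09 ± 0.71 and -2.93 ± 0.83, adjusted p = 0.0191 and 0.00609), the call of Oas2 being lost without 41BB+ library 2 or 41BB- library 1 (largest adjusted p = 0.135), while Oas1a (adjusted p = 0.069) and Oasl1 (adjusted p = 0.116) missed the threshold. Oas3, next to Oas2 on chromosome 5, behaved otherwise. It was at 26.8, 30.6 and 26.8 CPM in 41BB+ and 41.2, 42.8 and 31.1 CPM in 41BB- libraries at 0 h, dropped to 0.85, 5.57 and 2.81 and to 9.57, 1.66 and 1.70 CPM at 24 h, and reached 5.49, 10.2 and 32.3 and 18.2, 18.3 and 25.9 CPM at 72 h. It rose from 24 h to 72 h in both populations (2.43 ± 0.72, adjusted p = 0.011, and 2.49 ± 0.69, adjusted p = 0.00985), and the 41BB+ 72 h libraries span a wide range. The rise was lost in 41BB+ cells without 72 h library 3 (1.39, adjusted p = 0.0776) and in 41BB- cells without 24 h library 2 or 3 (largest adjusted p = 0.0559). Of the 50-base words in Oas1a transcripts 57.6% also occur in other genes, chiefly Oas1g and Oas1b, so the counts of Oas1a may be split or lost.

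Eif2ak2 encodes PKR, which stops translation on double-stranded RNA. It was at 20.6, 20.6 and 26.0 CPM in 41BB+ and 42.1, 41.5 and 31.7 CPM in 41BB- libraries at 0 h (-0.78 ± 0.22, adjusted p = 0.00501), and rose in 41BB- cells from 20.4, 26.7 and 18.2 CPM at 24 h to 31.1, 45.1 and 44.1 CPM at 72 h (1.02 ± 0.22, adjusted p = 0.000377). Its 0 h to 24 h interaction (0.91 ± 0.31, adjusted p = 0.0345) was lost in 8 of the 12 fits without 1 library. Cmpk2, a mitochondrial nucleotide kinase, fell to 24 h and rose to 72 h by the test in both populations. In 41BB- cells it was at 7.13, 7.13 and 9.65 CPM at 0 h, 0.957, 1.18 and 0.284 CPM at 24 h and 8.96, 11.3 and 8.26 CPM at 72 h. In 41BB+ cells it was at 3.53, 0.858 and 2.89 CPM, then 0.283, 0.795 and 0.256 CPM, then 7.41, 7.27 and 11.3 CPM. The 3 libraries of each population were lowest at 24 h, but 41BB+ library 2 had 3 counts at both 0 h and 24 h. The fall to 24 h was -3.30 in 41BB- (adjusted p = 1.69e-05, edgeR) and -2.30 in 41BB+ cells (adjusted p = 0.00979). The 41BB+ fall was lost without 0 h library 1 or 24 h library 3 (largest adjusted p = 0.0576). The 24 h to 72 h rise was 3.62 ± 0.57 in 41BB- (adjusted p = 7.36e-06) and 4.25 ± 0.62 in 41BB+ cells (adjusted p = 1.42e-06). Rsad2, its neighbour, encodes viperin, which makes a chain-terminating nucleotide. It did not return, with 14 and 37 counts over the 41BB+ and 41BB- libraries at 0 h, 0 and 3 at 24 h and 0 and 0 at 72 h. Isg20, an exonuclease, did not differ by the test between populations at any time and fell from 24 h to 72 h in 41BB- cells (-2.03 ± 0.79, adjusted p = 0.0409), a call lost in 4 of the 6 fits without 1 library (largest adjusted p = 0.153) and with no filter on low counts (0.0603).

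The IFIT proteins bind viral RNA caps and ends. Ifit1 (ENSMUSG00000034459, chr19:34640871-34650009) was at 5.30, 7.44 and 6.84 CPM in 41BB+ and 26.3, 32.7 and 22.6 CPM in 41BB- libraries at 0 h (log2 fold change -2.06 ± 0.42, adjusted p = 0.000249). Over the 3 libraries of each population the counts then went from 70 and 261 at 0 h to 6 and 12 at 24 h and 7 and 1 at 72 h. The 0 h to 24 h fall was -4.68 ± 0.52 in 41BB- (adjusted p = 9.11e-09) and -3.48 ± 0.59 in 41BB+ cells (adjusted p = 3.04e-05). All 41BB- libraries lay above all 41BB+ libraries at 0 h, and no group regained its 0 h level.

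Ifit3 followed the same course in 41BB- cells, at 37.2, 39.5 and 25.6 CPM at 0 h, 9.89, 6.62 and 5.11 CPM at 24 h and 1.58, 0 and 0.472 CPM at 72 h, with a second fall of -3.16 ± 0.60 (adjusted p = 0.000102). In 41BB+ cells it was at 6.77, 4.86 and 7.63 CPM at 0 h and 0.823, 1.75 and 2.42 CPM at 72 h. Of its 50-base words 51.2% also occur in Ifit3b, so the 2 genes cannot be told apart in full. Ifit1bl1 differed by the test between the populations at all 3 times, though the later calls depended on single libraries (lost without any of 5 of the 6 libraries at 24 h, largest adjusted p = 0.182, and without 41BB+ or 41BB- library 3 at 72 h, largest adjusted p = 0.0885). It was at 19.1, 12.9 and 17.9 CPM in 41BB+ and 63.2, 48.9 and 56.4 CPM in 41BB- libraries at 0 h. After 24 h it was at 4.82, 7.16 and 2.81 against 16.6, 21.3 and 22.4 CPM, and at 72 h at 3.29, 9.31 and 22.9 against 5.00, 1.74 and 2.12 CPM. The 41BB+ libraries overlapped the 41BB- libraries only at 72 h. From 24 h to 72 h Ifit1bl1 fell in 41BB- cells (-2.60 ± 0.52, adjusted p = 0.000411) and rose in 41BB+ cells (1.34 ± 0.50, adjusted p = 0.0299), the rise lost without 41BB+ 24 h library 1 or 3 and without 41BB+ 72 h library 3 (0.41, adjusted p = 0.454 without the last). The interaction was 3.94 ± 0.72 (adjusted p = 0.000638) and kept its call without any 1 library. Ifit2 kept more of its level than its neighbours, at 29.5 to 41.8 CPM in 41BB+ and 50.2 to 61.7 CPM in 41BB- libraries at 0 h, and 24.1 to 32.6 and 8.14 to 22.2 CPM at 72 h.

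**Figure D4:**
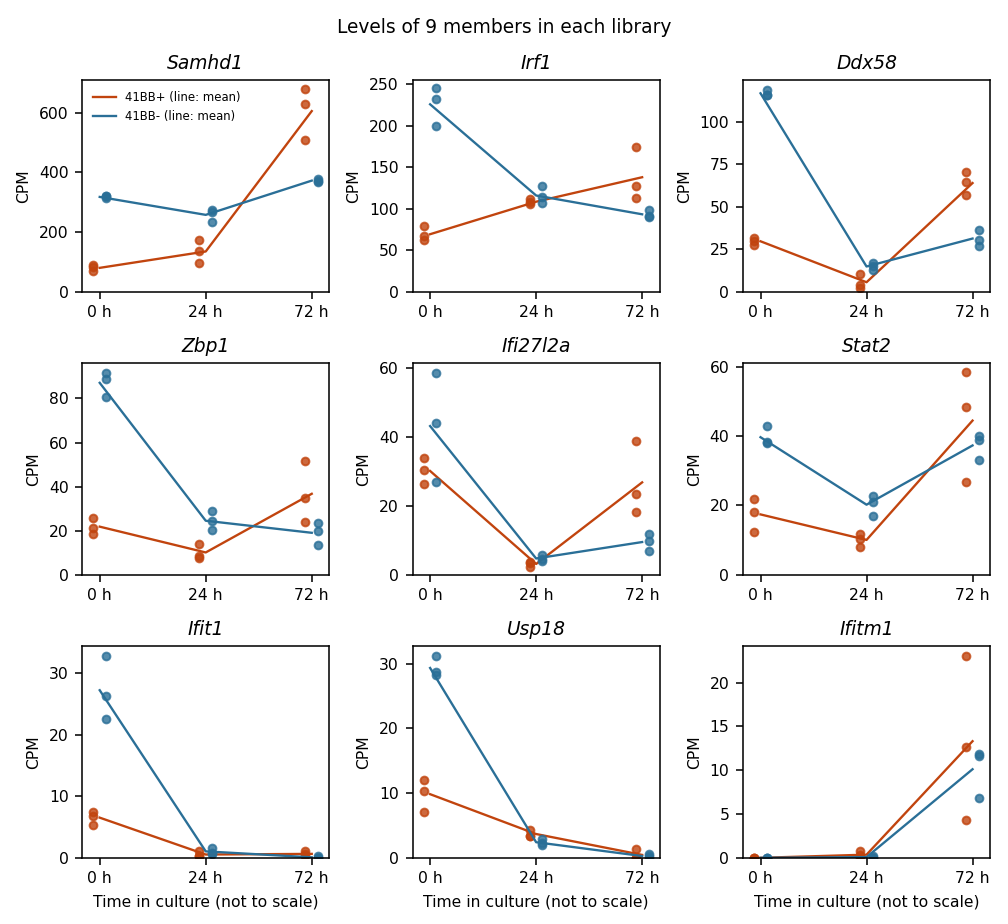
Level in CPM (linear axis from 0) of 9 members at 0 h, 24 h and 72 h, with a point for each library and lines through the group means, 41BB+ in orange and 41BB- in blue. Samhd1, Ddx58 and Zbp1 cross over between 24 h and 72 h, Ifit1 and Usp18 are near 0 at 72 h, and Ifitm1 appears at 72 h.

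The membrane genes did not share a course. Ifitm1, which blocks virus entry at the cell surface, had 0 counts in all 6 libraries at 0 h and 4 and 1 counts over the 41BB+ and 41BB- libraries at 24 h. At 72 h it was at 12.6, 23.0 and 4.31 CPM in 41BB+ and 11.9, 11.6 and 6.84 CPM in 41BB- libraries. It rose in both populations (adjusted p = 9.38e-06 and 8.75e-06), in 41BB- cells from 1 to 114 counts, a ratio of 108 with a 95% counting interval of 19.02 to 4307, and did not differ by the test between them at 72 h (0.42 ± 0.58, adjusted p = 0.684). Ifitm10, a family member, went the opposite way. It was at 14.1, 14.0 and 15.8 CPM in 41BB+ and 17.4, 23.3 and 15.7 CPM in 41BB- libraries at 0 h, and at 0, 0.265 and 0 against 0.319, 1.42 and 3.12 CPM at 24 h. Its counts over the 41BB+ libraries fell from 157 to 1, a ratio of 165 with a counting interval of 29.1 to 6543 (adjusted p = 3.11e-08). The interaction of -3.28 ± 1.07 (adjusted p = 0.0253) rests on 1 count in 41BB+ and 18 in 41BB- cells at 24 h, and was lost without 41BB+ 24 h library 1 or 3 or 41BB- 24 h library 3 (largest adjusted p = 0.134). Ifitm3 was at 3.71 CPM in 41BB+ 24 h library 2, which holds the myeloid RNA, and at 0 in the 2 other libraries of that group. Bst2 (tetherin, which holds budding virus at the cell surface) passed in none of the 9 comparisons by edgeR and lay between 9.89 and 21.3 CPM in all libraries.

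Among the remaining members, Ifi27l2a, a small interferon-induced membrane protein, was the member with the highest level per length at 0 h, at 65.1 CPM per kilobase of exon in 41BB+ and 93.2 in 41BB- cells. By library it was at 30.3, 33.8 and 26.3 CPM in 41BB+ and 58.6, 44.1 and 26.8 CPM in 41BB- cells at 0 h, then at 3.68, 3.45 and 2.30 against 5.74, 4.49 and 3.98 CPM at 24 h. At 72 h it was at 18.1, 23.6 and 38.8 against 9.75, 6.98 and 11.8 CPM. The populations overlapped at 0 h and were separate at 72 h, where the difference was 1.52 ± 0.30 (adjusted p = 0.000578). It fell about equally in both populations to 24 h (-3.20 ± 0.35 and -3.26 ± 0.33) and rose more in 41BB+ cells afterwards (3.16 ± 0.35 against 1.17 ± 0.35, interaction 1.99 ± 0.51, adjusted p = 0.00596). The 41BB- rise was lost without 24 h library 3 or 72 h library 3 (largest adjusted p = 0.0725).

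Xaf1, a protein that counters inhibitors of apoptosis, gave 1 of the 2 population differences at 24 h that held without any 1 library, the other being Samhd1. It was at 0.567, 1.86 and 0.511 CPM in 41BB+ and 7.02, 4.73 and 6.25 CPM in 41BB- libraries (-2.45 ± 0.48, adjusted p = 0.00293). At 0 h it was at 10.01, 13.7 and 11.6 against 26.0, 27.6 and 29.3 CPM, and at 72 h at 6.31, 9.89 and 14.5 against 5.27, 5.23 and 7.31 CPM. Xaf1 was lowest at 24 h in each 41BB+ library, and its 24 h to 72 h interaction was 3.26 ± 0.60 (adjusted p = 0.000257). Rtp4, a chaperone of membrane receptors, was at 10.3, 6.58 and 8.15 CPM in 41BB+ and 25.1, 22.7 and 25.3 CPM in 41BB- libraries at 0 h. In 41BB- cells it fell again from 7.66, 3.55 and 2.56 CPM at 24 h to 0.79, 0.291 and 1.42 CPM at 72 h (-2.20 ± 0.61, adjusted p = 0.00475), whereas 41BB+ cells went from 0.283, 2.39 and 0.511 to 1.37, 3.20 and 2.96 CPM without passing the test (adjusted p = 0.0936). The interaction was 3.47 ± 0.88 (adjusted p = 0.00581).

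Parp14 and Parp9, which work in ADP-ribosylation, were present in all 18 libraries but changed over time. Parp14 was at 68.6, 64.7 and 75.7 CPM in 41BB+ and 158, 143 and 153 CPM in 41BB- libraries at 0 h, at 83.9, 83.0 and 64.2 against 94.8, 91.3 and 60.8 CPM at 24 h, and at 126, 133 and 193 against 122, 109 and 103 CPM at 72 h. The 41BB- libraries were the higher at 0 h, overlapped with 41BB+ at 24 h and lay below all 41BB+ libraries at 72 h. It fell from 0 h to 24 h in 41BB- cells (-0.96 ± 0.17, adjusted p = 1.87e-05) and not by the test in 41BB+ cells (0.19 ± 0.17), an interaction of 1.15 ± 0.24 (adjusted p = 0.000605). The 72 h difference of 0.48 ± 0.16 (adjusted p = 0.0398) was lost without any of 3 libraries (largest adjusted p = 0.214). Parp9 was lower in 41BB+ cells at 0 h (-1.12 ± 0.22, adjusted p = 0.000141), and its exons share 9.4% of their length with Dtx3l on the opposite strand. In 41BB- cells Parp9 fell from a mean of 95.1 CPM at 0 h to 45.8 CPM at 24 h (-1.14, adjusted p = 6.93e-05, edgeR). In 41BB+ cells it rose from 28.9 CPM at 24 h to 67.3 CPM at 72 h (1.30, adjusted p = 2.20e-05). Both calls held without any 1 library.

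Mx1, a GTPase against influenza-like viruses that is defective in many laboratory strains, was at 7.72 to 9.73 CPM in 41BB+ and 16.1 to 22.7 CPM in 41BB- libraries at 0 h, separate but short of the threshold (adjusted p = 0.186). It fell from 180 to 3 counts in 41BB- cells by 24 h, a ratio of 67.8 with a counting interval of 22.8 to 332. All 11 of its counts in 41BB+ cells at 24 h came from library 2. Ifi35 was at 12.1 to 46.5 CPM over all libraries and fell to 24 h in 41BB- cells (-0.93 ± 0.23, adjusted p = 0.00106). Its fall from 24 h to 72 h in 41BB+ cells (-0.56 ± 0.24, adjusted p = 0.048) was lost by DESeq2 (adjusted p = 0.0832) and in 4 of the 6 fits without 1 library (largest adjusted p = 0.27), and 16.8% of its exon length overlaps Gm11626 on the opposite strand. Ifi44 had 11 counts over the 41BB- libraries at 0 h and 0 in 41BB+, at least 4.07-fold higher against a floor of 3 counts over the group.

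The 72 h level of each member was also set against the starting level of the same population. In 41BB- cells 27 of the 34 tested members lay at 72 h below every 0 h library of the same population, against 29.1% of all tested genes, 2 lay above (Samhd1 and Ifitm1), against 27.9%, and 5 overlapped. In 41BB+ cells 12 lay below, against 31.6% of all genes, 10 lay above, against 22.6%, and 12 overlapped. The 41BB+ counts below and above thus lay near the shares of all genes. The median 72 h level was 22.0% of the 0 h level in 41BB- and 80.0% in 41BB+ cells. These counts describe libraries that do or do not overlap and were not tested. The 12 members below their start in 41BB+ cells were also below it in 41BB- cells: Usp18, Isg15, Oas1a, Oas2, Oasl1, Isg20, Ifit1, Ifit3, Ifitm10, Mx1, Rtp4 and Ifi35. The 10 above their start in 41BB+ cells were Stat2, Irf1, Ddx58, Trim25, Eif2ak2, Samhd1, Cmpk2, Ifitm1, Parp9 and Parp14. By 72 h Stat2, Irf1, Ddx58 and the 2 Parp genes had passed their start in 41BB+ cells. Ifit1, Mx1, Usp18 and most oligoadenylate synthases stayed far below it. A split of this size was near that of all genes in 41BB+ cells and is not particular to the members.

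**Figure D5:**
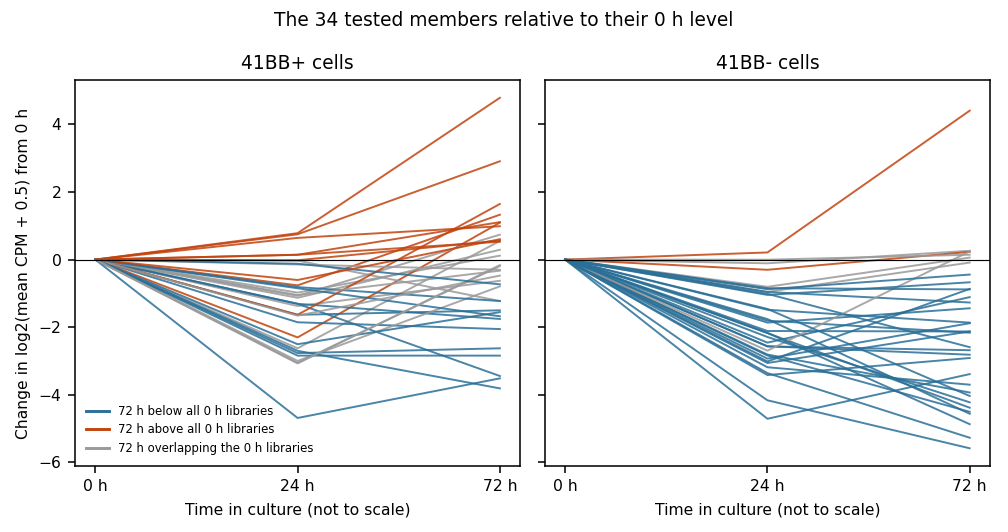
Change in log2(mean CPM + 0.5) from 0 h for each of the 34 tested members in 41BB+ cells (left) and 41BB- cells (right), coloured by whether the 72 h libraries lie all below, all above or among the 0 h libraries of the same population. In 41BB+ cells 12 lines end below, 10 above and 12 among the starting libraries, and in 41BB- cells 27, 2 and 5.

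Among the genes upstream of the members, Ifnar1, a receptor chain, was at 79.5, 101 and 120.19 CPM in 41BB+ and 140.1, 144 and 119 CPM in 41BB- libraries at 0 h, fell to 38.3, 33.7 and 28.6 and to 64.1, 44.2 and 38.6 CPM at 24 h, and reached 129.8, 143 and 220.3 and 123, 91.3 and 116 CPM at 72 h. At 72 h it was higher in 41BB+ cells (0.62 ± 0.20, adjusted p = 0.038), with no overlap between the populations. Ifnar2 was at 36.8, 42.1 and 48.7 CPM in 41BB+ and 27.9, 31.4 and 32.6 CPM in 41BB- libraries at 0 h, separate in the direction opposite to most members but short of the threshold (0.46 ± 0.19, adjusted p = 0.0603). Both chains fell to 24 h and rose to 72 h by the test in both populations, as did Jak1. Jak1 was lower in 41BB+ cells at 0 h (-0.41 ± 0.10, adjusted p = 0.00224) and higher at 72 h (0.63 ± 0.11, adjusted p = 8.10e-05). Tyk2 did not differ by the test between populations at any time and lay between 37.8 and 67.1 CPM. Irf3, which drives interferon beta, showed no population difference by the test, at 25.9 to 60.4 CPM.

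Of 11 interferon genes only Ifng passed the filter, and Ifnb1 had 0 counts in all 18 libraries. Ifng was at 4.42, 1.43 and 2.63 CPM in 41BB+ and 1.24, 1.30 and 1.51 CPM in 41BB- libraries at 0 h, at 5.39, 18.6 and 24.3 against 12.1, 19.4 and 17.0 CPM at 24 h, and at most 1.84 CPM at 72 h. It rose to 24 h in both populations (2.56 ± 0.66, adjusted p = 0.00433, and 3.48 ± 0.74, adjusted p = 0.000351), while most members fell. At 0 h 4 of 10 tested adaptors of interferon induction and 6 of 10 inhibitors of the pathway were lower in 41BB+ cells, with 1 inhibitor higher. Of all tested genes 17.3% were lower and 22.2% higher in that comparison.

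Of 30 further type I interferon targets outside the member list, 26 were tested. This list was chosen with earlier results of these data known. It includes Oas1b, Oas1g and Ifit3b, which share 50-base words with the members Oas1a and Ifit3, so it is not separate support for the member results. At 0 h 19 were lower and 0 higher in 41BB+ cells, against 17.3% and 22.2% of all genes. At 72 h 7 were higher and 0 lower, against 6.71% and 12.2%. To 24 h 26 fell in 41BB- and 15 in 41BB+ cells, against 27.6% and 16.5% of all genes. From 24 h to 72 h 17 and 21 rose, against 22.6% and 26.2%. Epsti1, an interferon-induced gene, changed most clearly: the 0 h difference was -1.85 ± 0.14 (adjusted p = 4.06e-11), and it fell to 24 h and rose to 72 h in 41BB+ (-2.31 ± 0.16 and 3.91 ± 0.16) and in 41BB- cells (-3.58 ± 0.16 and 2.82 ± 0.15). Sp100, a nuclear body protein, was lower at 0 h by -1.28 ± 0.13 (adjusted p = 6.43e-09), and its 24 h to 72 h interaction was 1.15 ± 0.19 (adjusted p = 8.90e-05). Of 20 genes known mainly as interferon gamma targets, 14 were tested. To 24 h 8 of them rose and 1 fell in 41BB+ cells, against 18.1% and 16.5% of all genes. In 41BB- cells 5 rose and 4 fell, near the 29.0% and 27.6% of all genes. At 0 h 9 of the 14 were lower in 41BB+ cells and 0 higher, against 17.3% and 22.2% of all genes. All these lists were read against the shares of all genes given above, and the differences between lists were not tested.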

How the data were processed

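Gene counts were made by the authors and deposited as 1 table of raw counts. The submitters' processing notes name FastQC 0.11.9, Trimmomatic 0.38, HISAT2 2.2.1 and featureCounts as tools, and GRCm38 as the build. Per the labels' protocols libraries were made with a stranded total RNA kit. The sources used here do not give the annotation release, the strand setting or the treatment of reads that match several genes, so near-identical and overlapping genes are uncertain. Of the 55487 genes 55227 had a GENCODE M21 symbol.

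Counts were tested in R 4.3.3 with edgeR 4.0.16 (TMM scaling, filterByExpr by group with a minimum count of 10, robust quasi-likelihood fit over all 18 libraries, 9 contrasts), and p-values were adjusted over all 13150 tested genes. The common biological coefficient of variation was 0.18. Each SE was derived from the test, as the absolute log2 fold change divided by the square root of its F value. The fit was tested on simulated data. Intervals and the floor of 3 counts cover counting error only. No 2 replicates agreed within counting noise (chi-square per degree of freedom 4.56 to 8.90). DESeq2 1.42.0 and other settings were run as alternatives.

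Members and lists were chosen with earlier results of these data known. Values in every library are given for up to 4 members per direction and comparison with the smallest adjusted p, and for further members to account for each. Ifnar1, Ifnar2, Jak1, Tyk2, Irf3 and Ifng were named whatever their test, and up to 3 other genes of the pathway lists per comparison could be named. The titles name the number as an experiment, so the numbers were taken as pairs in the block fits. Deviations from the group mean over 8448 genes had a median r of 0.211 in the 9 pairs that share a time and a number (lowest 0.0742, 6 above 0.1) and of -0.137 in 18 pairs with other numbers. Deviations within a group sum to 0, so positive values in the first set push the second below 0. The second value is therefore not a separate contrast. A gene of the pathway lists and a cell marker are not reported here.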

Additional observations from a re-analysis of the deposited data

Results flagged for a closer look

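For the following members the change in 41BB+ cells differed from the change in 41BB- cells by the interaction test of edgeR, adjusted over 13150 genes; values are the 41BB+ minus the 41BB- log2 change with its SE. From 0 h to 24 h these were Irf1 (1.73 ± 0.20, adjusted p = 1.73e-07), Samhd1 (1.18 ± 0.21, adjusted p = 0.000111), Parp14 (1.15 ± 0.24, adjusted p = 0.000605), Irf9 (1.01 ± 0.28, adjusted p = 0.00849), Usp18 (2.31 ± 0.66, adjusted p = 0.0111), Ifitm10 (-3.28 ± 1.07, adjusted p = 0.0253) and Eif2ak2 (0.91 ± 0.31, adjusted p = 0.0345). Irf1 and Samhd1 rose in 41BB+ and fell in 41BB- cells, while the other positive values reflect a larger fall in 41BB- cells or a fall called there alone. The Samhd1 fall in 41BB- cells was lost in each of the 6 fits without 1 library (largest adjusted p = 0.199, edgeR). Of the interactions, that of Eif2ak2 was lost in 8 and that of Ifitm10 in 3 of the 12 such fits.

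From 24 h to 72 h they were Samhd1 (1.56 ± 0.20, adjusted p = 6.27e-06), Ddx58 (2.35 ± 0.38, adjusted p = 7.02e-05), Zbp1 (2.13 ± 0.38, adjusted p = 0.000201), Xaf1 (3.26 ± 0.60, adjusted p = 0.000257), Ifit1bl1 (3.94 ± 0.72, adjusted p = 0.000638), Rtp4 (3.47 ± 0.88, adjusted p = 0.00581), Ifi27l2a (1.99 ± 0.51, adjusted p = 0.00596), Irf7 (2.94 ± 0.76, adjusted p = 0.0083), Stat2 (1.19 ± 0.36, adjusted p = 0.0197) and Irf1 (0.58 ± 0.20, adjusted p = 0.0403). Ifit1bl1 moved in opposite directions by the test, Rtp4 fell by the test in 41BB- cells alone, Irf1 and Zbp1 rose by the test in 41BB+ cells alone, as did Irf7 and Xaf1, and Samhd1, Ddx58, Ifi27l2a and Stat2 rose in both populations and more in 41BB+ cells. The interaction of Stat2 was lost in 2 and that of Irf1 in 3 of the 12 fits without 1 library. The 41BB+ 24 h group includes library 2 with 77.4 CPM of myeloid markers, and the part of that RNA in these values was not tested beyond leaving the library out.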

How the results depend on the processing

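No member result changed direction under any setting run. The member counts stayed within 1.5 times of the reported ones except as follows. From 24 h to 72 h in 41BB+ cells 2 members fell, and 1 by DESeq2, with RLE size factors and with only the compared groups. In 41BB- cells 9 fell, and 3 with only the compared groups, where 11 of the calls over all comparisons had no p because fewer genes passed the filter. The negative 24 h to 72 h interaction was called for 0 members, and for 1 by DESeq2, with no filter on low counts and with the replicate block within each time. At 72 h 0 members were lower in 41BB+ cells, and 1 with the replicate block within each time. That block and scaling by library totals alone were chosen after seeing the data. The replicate block over all times changed 2 calls, Dhx58 at 0 h (21 members lower against 22) and the 24 h to 72 h interaction of Irf1 (9 against 10). With it 9 members were higher at 72 h against 8, and no other call was lost.

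Leaving out 1 library at a time gave 2 to 8 members lower in 41BB+ cells at 24 h (6 with all) and 4 to 12 higher at 72 h (8 with all). It gave 13 to 22 rising (20 with all) and 1 to 2 falling from 24 h to 72 h in 41BB+ cells, 7 to 12 rising in 41BB- cells, 0 to 2 negative interactions to 24 h and 0 to 1 to 72 h. The count of 4 at 72 h and of 13 in 41BB+ cells came without 41BB+ 72 h library 3, and the count of 7 in 41BB- cells without 41BB- 24 h library 3. The count of 2 at 24 h came without 41BB+ library 1, 41BB+ library 3 or 41BB- library 3, that of 3 without 41BB- library 2, and that of 8 without 41BB+ library 2. Of 22 calls at 0 h, 18 held in every such fit, of 6 at 24 h 2, and of 8 at 72 h 4. The cause of these changes was not tested.

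Scaling by library totals alone moved the median of all genes from -0.05 to -0.17 in the 0 h to 24 h interaction, from 0.02 to -0.10 at 24 h and from 0.04 to -0.11 from 24 h to 72 h in 41BB- cells. Members with few counts limit the depth: a group of 3 libraries with 0 counts still allows 3 counts over the group.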
